A study of Bos taurus with 28 samples.

Results

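Prolactin and the dopamine receptor that restrains its release were followed across the anterior pituitaries of 28 heifer calves. The 2 genes were taken by their rows in the deposited table, PRL (ENSBTAG00000015274) and DRD2 (ENSBTAG00000010860), out of 27607 genes, and both passed the filter on low values that left 14939 genes for testing. All calves were Angus x Holstein-Friesian heifers of 21 weeks of age. The 13 calves labelled as a high plane of nutrition (HI) received 1.5 kg (10 L) of milk replacer per day with unrestricted concentrate in a calf phase of 8 weeks, then unrestricted concentrate with hay for 11 weeks. The 15 calves labelled as a moderate plane (MOD) received 0.5 kg (4 L) of milk replacer and up to 1 kg of concentrate per day, then 1 kg of concentrate with hay over the same phases. The milk amounts are those first offered, and by the study's text both were gradually withdrawn by weaning. The target daily gains were 1.2 kg for HI and 0.5 kg for MOD. Each calf gave 1 mRNA library. The study's text gives groups of equal size, unlike the sample labels, which were followed here. Which source is right for every calf could not be told.

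Prolactin is the hormone of the lactotroph, a cell type of the anterior pituitary, and is known for its part in mammary development and lactation. Its control by the hypothalamus is mainly inhibitory: dopamine reaches the gland through the portal vessels, binds the D2 receptor encoded by DRD2 on the lactotroph, and lowers cAMP, electrical activity, prolactin secretion and PRL transcription through inhibitory G proteins. Lactotrophs carry both transcripts, which were listed here as markers of that cell type. Whether other cells in these samples also carry DRD2 was not tested.

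The libraries held 12669266 to 18217216 reads on genes, and every pair of them differed by more than the sampling noise of their reads. Values are CPM, the reads of a gene scaled to a common library size once each library total is corrected for composition by the TMM method. The tissue label was checked on hormone and receptor transcripts that carry a symbol: FSHB, the beta subunit of FSH, averaged 707 CPM in HI and 1554 CPM in MOD, and GHRHR, the receptor of somatotrophs for growth hormone releasing hormone, averaged 278 and 424 CPM. The markers of thyrotrophs, corticotrophs and blood on the lists had no identifier paired with a symbol and were not analysed here. In bulk tissue, more cells of a type and more RNA per cell cannot be told apart, which holds for every level below.

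PRL, the hormone transcript, took between 7.98% and 24.0% of the reads on genes in HI calves and between 3.36% and 11.7% in MOD calves. Its level in the 13 HI calves ran from 70067 CPM (calf 986) through a median of 191905 CPM to 267896 CPM (calf 2120). In the 15 MOD calves it ran from 32023 CPM (calf 1392) through a median of 76115 CPM to 145610 CPM (calf 2551). The groups overlapped: 6 of the 13 HI calves lay within the MOD range and 7 lay above every MOD calf, while 7 of the 15 MOD calves lay below every HI calf. PRL was higher in HI by 1.01 on the log2 scale (SE 0.22, 95% interval 0.57 to 1.45), and passed the test (limma, Benjamini-Hochberg adjusted p = 0.00815). By the same rule, an adjusted p below 0.05 with a fold above 1.5, 0.408% of the genes tested were called higher in HI and 0.428% were called lower.

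Within the HI group, PRL did not fill its range evenly. Calf 1360 at 118463 CPM and calf 2570 at 191905 CPM were neighbours in the order of levels, with 6 calves up to the former and 7 from the latter. That gap of 0.70 on the log2 scale compares with 0.21 for the next largest among HI calves. The MOD calves showed no such step in their middle, their largest gap of 0.46 separating calf 1392 from the other 14. Whether the HI calves form separate clusters was not tested. The mean absolute deviation of log2 PRL from the group median was 0.61 in HI and 0.37 in MOD, which did not pass a 2-sided permutation test (difference 0.23, p = 0.150), and the p fell to between 0.0292 and 0.0393 when HI calf 1388, 1707, 2535, 2570 or 3620 was left out. All of these calves lie above the gap. Without any of them the HI median, from which deviations are measured, moves into the gap, so this p depends on where the median lies.

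DRD2, the receptor transcript, was higher in HI calves, and fewer of them lay within the MOD range than for PRL. Its level ran from 199 CPM (calf 986) through a median of 417 CPM to 619 CPM (calf 2535) in HI calves. In MOD calves it ran from 137 CPM (calf 975) through a median of 212 CPM to 279 CPM (calf 2551). Only HI calves 986 and 553 lay within the MOD range, and the other 11 lay above every MOD calf. From the MOD side the overlap was as for PRL, with 7 of the 15 MOD calves below every HI calf. The difference was 0.94 on the log2 scale (SE 0.14, 95% interval 0.65 to 1.23, limma adjusted p = 0.000453). In the order of p-values over all genes, DRD2 was number 6 and PRL number 110. Counting error is small beside these differences, since DRD2 rested on 2257 to 8916 reads per calf and PRL on 482782 reads or more.

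**Figure D1:**
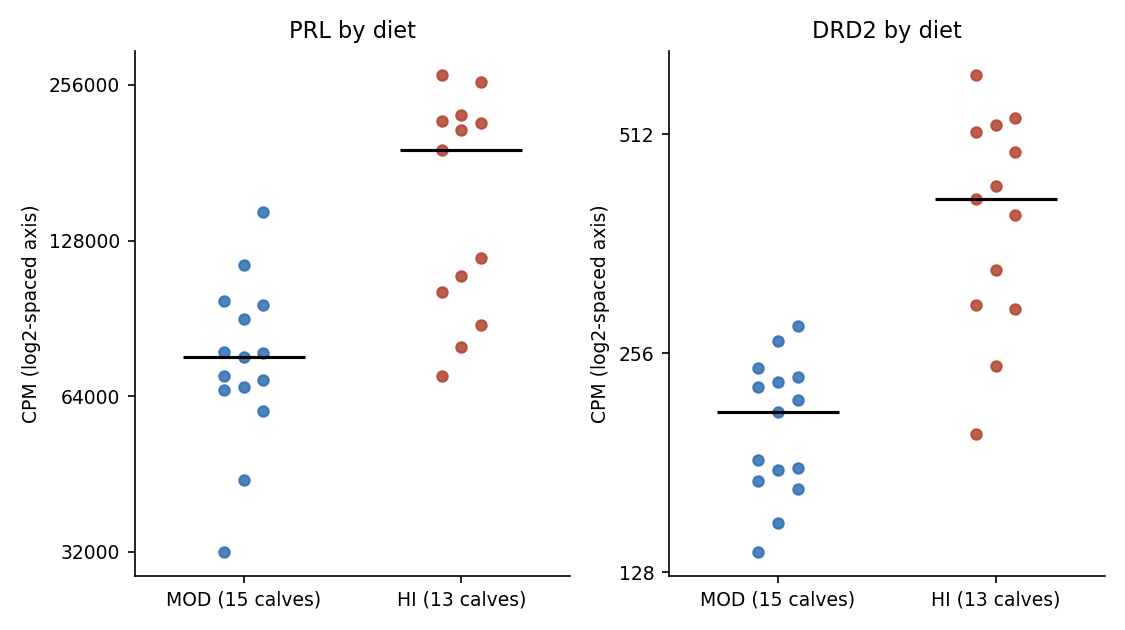
Level of PRL (left) and DRD2 (right) in CPM on log2-spaced axes, 1 point per calf, with a bar at the median of each diet. The 13 HI calves split into 6 at 70067 to 118463 CPM and 7 at 191905 to 267896 CPM of PRL, while DRD2 in HI ran from 199 to 619 CPM with 2 calves inside the MOD range.

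Both transcripts were higher in HI, so the receptor was also set against the hormone within each calf. The CPM of DRD2 per 1000 CPM of PRL ran from 1.53 through a median of 2.49 to 3.99 CPM in HI calves, and from 1.80 through 2.65 to 4.67 CPM in MOD calves. The ranges overlapped almost wholly. The log2 ratio of DRD2 to PRL was lower in HI by 0.07, that is, a difference of -0.07 (SE 0.15, 95% interval -0.38 to 0.25, 2-sided permutation p = 0.671). A ratio within a library does not depend on its scaling. The interval leaves room for a change of the ratio in either direction.

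Each transcript was also compared between diets with the other held equal, and neither difference passed the test. At equal PRL, DRD2 was higher in HI by 0.44 on the log2 scale (SE 0.13, 95% interval 0.18 to 0.70), with an unadjusted p of 0.00144 and a limma adjusted p of 0.155. At equal DRD2, PRL differed by -0.08 (SE 0.23, 95% interval -0.54 to 0.39, limma adjusted p = 0.934), and the sign turned (0.08) when libraries were scaled to their totals without TMM. The fits use 1 slope for both diets.

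Within the HI diet, calves with more PRL had more DRD2. On log2 CPM over the 13 HI calves, Pearson's r was 0.856 (2-sided permutation p = 0.00028, adjusted p = 0.00112 over 4 values) and Spearman's rho was 0.769 (permutation p = 0.00314, adjusted p = 0.00628). Calf 986 was lowest in both genes and calf 553 second lowest in both. The highest DRD2 was in calf 2535, which was number 8 of 13 in PRL, and the highest PRL was in calf 2120, which was number 12 in DRD2. Without calves 553 and 986, the farthest from the median of PRL, r was 0.744 (permutation p = 0.0114).

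The relation in HI was also looked at on each side of the gap in PRL. Among the 6 HI calves below it, r was 0.736 (exact permutation p = 0.0917) with DRD2 from 199 to 435 CPM. Among the 7 above it, r was -0.05 (exact permutation p = 0.904) with DRD2 from 397 to 619 CPM. On neither side did the relation pass the test. The split was made on PRL itself at a gap seen in these data, which narrows its range and leaves few calves. A lower r is thus partly built in, and these tests cannot decide whether the relation holds within a side. The 4 calves with the most DRD2 (517 to 619 CPM) were above the gap, and calf 2528, below the gap at 109084 CPM of PRL, had 435 CPM of DRD2, more than calves 1089 and 2570 above it.

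Within the MOD diet the relation had the same sign and was less firm. In the 15 MOD calves, Pearson's r reached 0.588 by the same permutation test (p = 0.0195, adjusted p = 0.0260) and Spearman's rho reached 0.50 (permutation p = 0.0602). Calf 2551 was highest in both genes and calf 1392 was lowest in PRL and second lowest in DRD2. Leaving out calves 1392 and 2551 together brought r to 0.314 (permutation p = 0.296), which no longer passed, so the test of r rests on those calves. Leaving out calf 1392 alone gave 0.483 and calf 2551 alone 0.480, and neither passed, while the slope of DRD2 on PRL in MOD, 0.34 over all calves, was 0.34 without calf 1392 and 0.29 without calf 2551. Calf 975 had the lowest DRD2 of all calves at a PRL level that was the MOD median.

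Fitted as a slope on the log2 scale, a doubling of PRL went with a 1.52-fold level of DRD2 in HI (slope 0.60, SE 0.10, limma adjusted p = 0.00666) and a 1.27-fold level in MOD (slope 0.34, SE 0.12, limma adjusted p = 0.310). The call in HI was lost without calf 986, with a slope of 0.52 and a limma adjusted p of 0.0700. It was also lost when each side of the gap had its own mean, with a slope of 0.67, an SE of 0.33, an unadjusted p of 0.0486 and a limma adjusted p of 1.00. The slopes differed between diets by 0.26 (SE 0.16, 95% interval -0.07 to 0.59, limma adjusted p = 0.537), so a difference between diets was not shown. The slope of PRL on DRD2 was 1.22 in HI (SE 0.23, limma adjusted p = 0.00899) and 1.01 in MOD (SE 0.34, limma adjusted p = 0.223), with a difference of 0.21 (SE 0.41, limma adjusted p = 0.855). The MOD slope had a 95% interval of 0.32 to 1.70 and an unadjusted limma p of 0.00535.

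**Figure D2:**
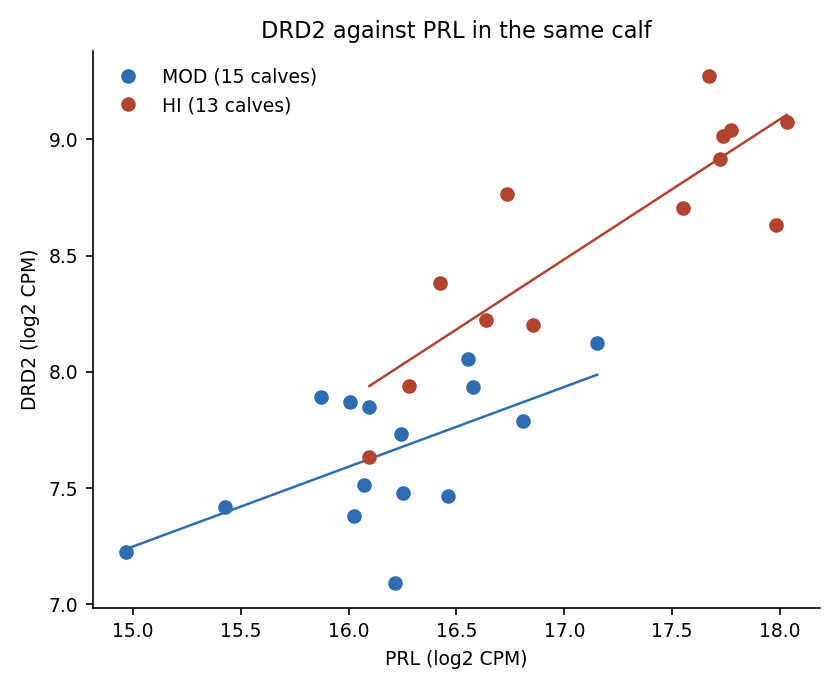
Level of DRD2 against PRL in the same calf, both in log2 CPM, 1 point per calf and a least-squares line per diet. The slope is 0.60 over the 13 HI calves and 0.34 over the 15 MOD calves, and the HI calves fall on both sides of an empty stretch of 0.70 on the PRL axis.

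Among all genes tested, each member stood close to the top of the other's order in HI. Ranked by r with PRL over the HI calves, DRD2 was number 13 of 14938 genes, and ranked by r with DRD2, PRL was number 20. In MOD the places were 316 and 417. Of all genes, 90% had an r with PRL between -0.58 and 0.61 in HI and between -0.52 and 0.51 in MOD. CSHL1, which the study describes as coding for a somatotropin, was the other transcript with a very large share of reads (85822 CPM in HI, 138311 CPM in MOD). Its r with PRL was 0.62 in HI and 0.11 in MOD. These places are descriptions, since all r within a diet share the same calves and the same scaling.

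**Figure D3:**
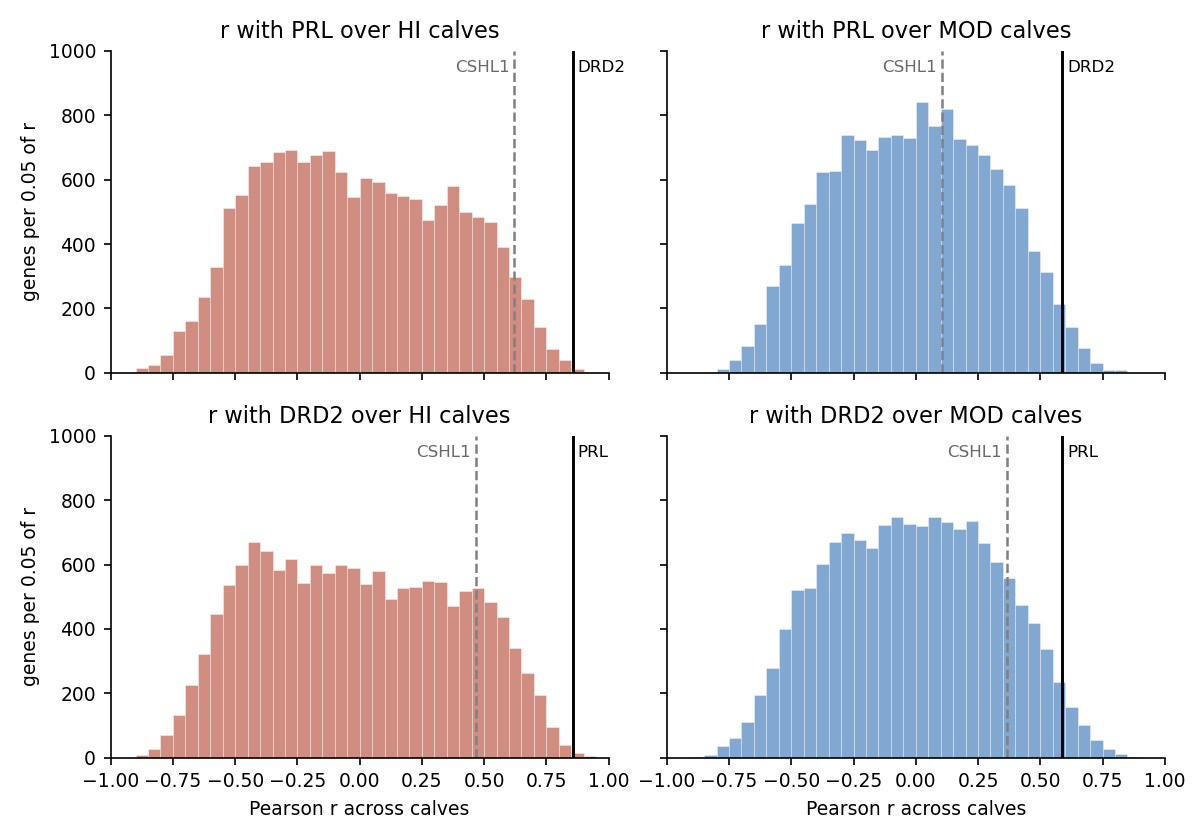
Number of genes per 0.05 of Pearson's r with PRL (top) or DRD2 (bottom) over the 13 HI calves (left) and the 15 MOD calves (right), on log2 CPM. The solid line marks the other member (0.86 in HI, 0.59 in MOD) and the dashed line marks CSHL1.

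Which other genes followed PRL was tested by the slope of every gene on log2 PRL within each diet. In HI, 35 genes had a positive slope that passed the test, DRD2 among them (0.234% of those tested), and 18 had a negative one (0.12%). Only 6 of the positive and none of the negative genes carry a symbol here, because the study's list of genes that differed by diet on these same calves is the source of symbols. The 5 with the highest r were CRB2, DRD2, PLCH2, PLXNB3 and BEAN1, and the sixth was CIT.

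CRB2 (ENSBTAG00000014391), a crumbs protein of epithelial polarity, averaged 33.9 ± 9.75 CPM in HI (SD, n = 13) and 22.1 ± 3.54 CPM in MOD (SD, n = 15). Its slope on PRL was 0.53 in HI (SE 0.09, limma adjusted p = 0.00679) and 0.07 in MOD (SE 0.11, limma adjusted p = 0.831), and the HI call was lost without calf 986 (slope 0.50, limma adjusted p = 0.0617). PLCH2 (ENSBTAG00000002464), a phospholipase C that calcium activates, averaged 2.85 ± 2.74 CPM in HI and 1.01 ± 0.871 CPM in MOD. It had the steepest slope of the 6, 1.47 in HI (SE 0.25, limma adjusted p = 0.00666) against 0.62 in MOD (limma adjusted p = 0.438). The HI call of PLCH2 held without each calf in turn, but its slope was 0.90 with a pseudocount of 2 CPM in place of 0.5, a value near its level.

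PLXNB3 (ENSBTAG00000010146), a plexin that receives semaphorin signals, had a slope on PRL of 0.46 in HI (SE 0.09, limma adjusted p = 0.0223), BEAN1 (ENSBTAG00000009762) had 0.45 (SE 0.10, limma adjusted p = 0.0445) and CIT (ENSBTAG00000008963), the citron kinase of cytokinesis, had 0.45 (SE 0.10, limma adjusted p = 0.0346). In MOD the slope was 0.14 for PLXNB3, 0.15 for BEAN1 and -0.000116 for CIT, the last turning to 0.00074 with size factors of DESeq2. These calls lay close to the threshold. Leaving out 1 calf at a time, that of PLXNB3 was lost without HI calf 553, 986, 1050 or 2120, and that of CIT without HI calf 553, 986, 1050, 1707, 2120 or 2535. That of BEAN1 was lost without HI calf 553, 986, 1050, 1360, 1388, 1531, 2120, 2535 or 2570 or MOD calf 991, 2346 or 2532. For none of the 6 did the slopes differ between diets by a test that passed, the difference for CRB2 being 0.45 (SE 0.14, limma adjusted p = 0.252). No gene with a symbol fell as PRL rose by a test that passed. The lowest r in HI were those of RGS1 (-0.64), a brake on G protein signalling, MTUS2 (-0.63), a microtubule-associated protein, and PRRT4 (-0.62), with limma adjusted p-values for the slope of 0.218, 0.204 and 0.154. With libraries scaled to their totals, where the slope of most genes was negative, these became 0.0439, 0.00691 and 0.0119.

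In MOD a single gene passed the test on PRL (0.00669% of those tested), ENSBTAG00000027868, with a slope of -0.54 (SE 0.09, limma adjusted p = 0.0154), an r of -0.92 in MOD and -0.10 in HI. Of genes with a symbol none passed there, and the extremes by r were GPX3 (0.71), an extracellular glutathione peroxidase, CSGALNACT1 (0.69), an enzyme of chondroitin sulphate synthesis, and ATF3 (0.67), a stress-induced transcription factor, against GNA15 (-0.80), a Gq-class alpha subunit, CIBAR2 (-0.70) and GHRHR (-0.67). GNA15 kept an r of -0.63 and GHRHR of -0.54 without calves 1392 and 2551, while the r of GPX3 became 0.42, of ATF3 0.37, of CSGALNACT1 0.24 and of CIBAR2 -0.30. Without calf 1392 alone 46 genes passed on PRL in MOD, without HI calf 1388 there were 2, and without calf 1395 or 2551 there were 0. The slope on PRL differed between diets for a single gene (0.00669% of those tested).

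On DRD2 in HI, 127 genes had a positive slope that passed the test, PRL among them (0.85% of those tested), and 74 had a negative one (0.495%). The count of 201 against 53 on PRL comes from the same calves, the difference was not tested, and the order turned with libraries scaled to totals, where 201 genes passed on DRD2, 14 with a positive and 187 with a negative slope, and 4786 on PRL. Of the positive genes 12 carry a symbol: CRB2, PLXNB3, ETV1, IQGAP3 and PRL with the highest r, then PLCH2, BEAN1, CIT, GREB1L, ATP2B2, DIO3 and GPC5. CRB2 had an r with DRD2 of 0.935 (2-sided permutation p = 1e-05, the smallest that the resamples can give, adjusted p = 0.00026 over 52 values), and leaving out the pair of calves farthest from the DRD2 median gave 0.934. Its slope on DRD2 was 0.81 in HI (SE 0.12, limma adjusted p = 0.000619) and 0.07 in MOD (SE 0.17, limma adjusted p = 0.888, turning to -0.00135 with libraries scaled to totals), with a difference of 0.74 (SE 0.21, limma adjusted p = 0.226).

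PLXNB3 followed DRD2 in HI with a slope of 0.73 (SE 0.12, limma adjusted p = 0.00377), and without calf 986 the slope was 0.67 and the adjusted p 0.0666. ETV1, an ETS transcription factor, followed with 0.86 (SE 0.17, limma adjusted p = 0.0103), a call lost without calf 553 or 986 and with libraries scaled to totals. IQGAP3, a scaffold of dividing cells, followed with 1.28 (SE 0.26, limma adjusted p = 0.0149), a call lost without calf 553, and with 0.84 at a pseudocount of 2 CPM. PRRT4 was the single gene with a symbol that fell as DRD2 rose in HI (slope -0.76, SE 0.19, limma adjusted p = 0.0396), and its slope in MOD was -0.77 (SE 0.28, limma adjusted p = 0.258). Its slope in HI was -0.42 with a pseudocount of 2 CPM, where the call was lost, and -1.12 with libraries scaled to totals. Its call was also lost without HI calf 553, 986, 1050, 1360, 1531, 2120 or 2535. Among the other followers were ATP2B2, a calcium pump of the plasma membrane (slope 0.59, limma adjusted p = 0.0320), DIO3, the deiodinase that inactivates thyroid hormone (slope 1.38, limma adjusted p = 0.0336), and GPC5, a glypican (slope 0.70, limma adjusted p = 0.0470). Without HI calf 553, 986 or 2535 the calls on DRD2 of ATP2B2, BEAN1, CIT, DIO3, GREB1L and GPC5 were lost, those of DIO3 also without 2120 and of GREB1L also without 1050, and the call of GPC5 held in only 10 of the 28 fits that left out 1 calf. The call of PLCH2 on DRD2 (slope 2.03, SE 0.35, limma adjusted p = 0.00540) held in all 28, with a slope of 1.22 at a pseudocount of 2 CPM.

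In MOD 2 genes passed the test on DRD2 (0.0134% of those tested), ENSBTAG00000005843 with a slope of 1.10 (SE 0.19, limma adjusted p = 0.0413) and ENSBTAG00000007214 with a slope of 0.73 (SE 0.13, limma adjusted p = 0.0413). Over the HI calves their r with DRD2 was 0.68 and -0.31. Leaving out 1 calf at a time, the count stayed within 1.5 times of 2 in only 7 of 28 fits and ran from 0 to 12, the latter without MOD calf 2532. Of genes with a symbol the extremes were GPX3 (r 0.74), ATF3 (0.65) and CHL1 (0.64), a neural cell adhesion molecule, against LAMP3 (-0.68), a lysosomal membrane protein, PRRT4 (-0.67) and CSMD2 (-0.63), none of which passed. For no gene did the slope on DRD2 differ between diets by a limma test that passed (0% of those tested). The smallest adjusted p was 0.224, 2047 genes had an unadjusted p below 0.05, and edgeR on the recovered reads also called 0, while 2 genes passed in limma without MOD calf 2532.

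**Figure D4:**
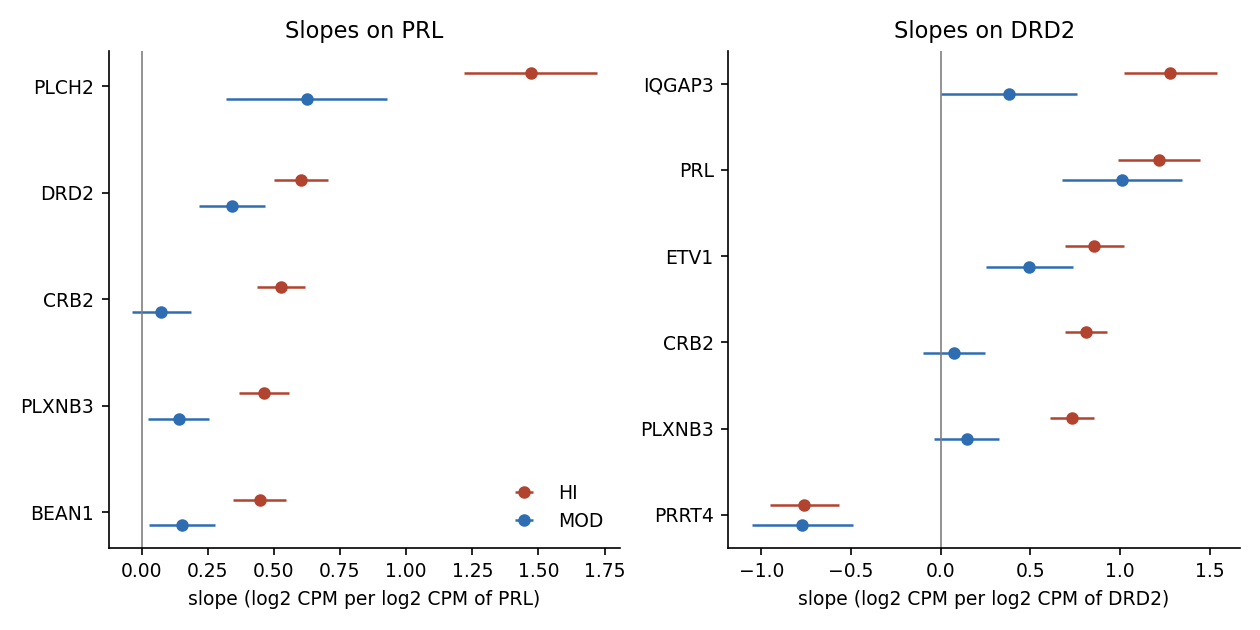
Slope of named genes on PRL (left) and on DRD2 (right), in log2 CPM per log2 CPM, fitted within HI and within MOD, with bars of 1 SE. The genes are those with a symbol that passed the test in HI and had the highest or lowest r: HI slopes on PRL run from 0.45 to 1.47, PRRT4 lies at -0.76 in HI and -0.77 in MOD on DRD2, and the difference between diets passed for none.

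The genes called in HI were also described by the sign of their slope in the MOD calves. The look-up is not independent, because the fit estimates 1 residual spread per gene over both diets and MOD calves thus had a part in the HI calls. Of the 35 genes with a positive slope on PRL in HI, 30 had a positive slope in MOD, as had 49.8% of all genes. Of the 18 with a negative slope, 10 were negative in MOD, against 50.2% of all genes. Of the 127 genes that rose with DRD2 in HI, 107 had a positive slope in MOD, against 48.9% of all genes, and of the 74 that fell, 47 were negative in MOD, against 51.1%. The median slope of the 127 was 0.55 in HI and 0.18 in MOD.

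The counts of followers hang on few calves and on the fit. A fit of the HI calves alone called 11 genes on PRL and 32 on DRD2. For PRL in HI the count of 53 was 6 without calf 986, 10 without 553, 22 without 1050, 32 without 2570 and 33 without 2120, and rose to 135 without 3620 and to 145 without MOD calf 2551. For DRD2 in HI the count of 201 was 22 without calf 553 or 986, 38 without 2535, 79 without 1050 and 124 without 1531, and rose to 523 without MOD calf 2551, 524 without 1707 and 931 without 3620. With a mean for each side of the gap in PRL among HI calves, limma called 0 genes on PRL (591 at an unadjusted p below 0.05) and 0 on DRD2 (904 at such a p). The sign was kept there by 33 of the 35 positive and all 18 negative genes on PRL, and by all 127 and all 74 on DRD2. Of all genes, 55.0% were positive on PRL and 50.4% on DRD2. The genes were picked on the same calves.

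**Figure D5:**
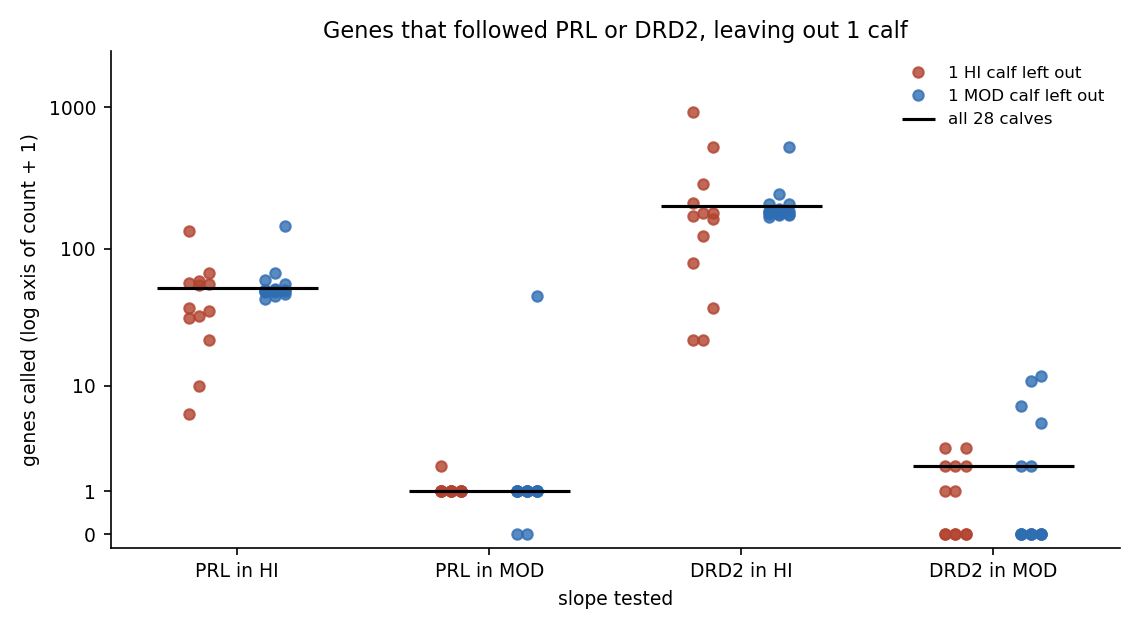
Number of genes that passed the slope test on PRL or DRD2 within each diet when 1 calf was left out, on a log axis of the count plus 1. Each point is a fit without 1 HI calf or 1 MOD calf, and the bar is the count over all 28 calves: 53, 1, 201 and 2 from left to right.

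The scaling of the libraries moved with both members. TMM factors had an r with log2 PRL of -0.94 in HI and -0.58 in MOD, and with log2 DRD2 of -0.78 and -0.55, while the number of reads per calf had an r between -0.16 and 0.10 with either. With TMM the median slope of all genes on PRL in HI was -0.01. Scaled to totals it was -0.24, 90.3% of all genes had a negative slope, and 4786 genes passed the test on PRL in HI, 39 with a positive and 4747 with a negative slope. Of the 35 positive genes 18 were still called with a positive slope on PRL, and all 18 negative genes were still called. On DRD2 in HI the median slope was -0.22 with totals, and 14 of the 127 positive and 53 of the 74 negative genes were still called with the same sign. The sign alone was kept by 34 of the 35 positive and all 18 negative genes on PRL. On DRD2 it was kept by all 127 and all 74. Of all genes, 9.69% were positive on PRL and 19.8% on DRD2 with totals. The calves are the same, so a kept sign is no independent evidence. DRD2 itself kept its call on PRL in HI, with a slope of 0.52 (limma adjusted p = 0.00641), and r in HI was 0.746. The part of the scaling in these slopes was not tested further.

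The signalling lists that the study drew from genes differing on these calves, which are therefore not independent evidence of a diet difference, hold both members. Over all genes 0.408% were called higher and 0.428% lower by diet, and in HI 0.234% rose and 0.12% fell with PRL, and 0.85% rose and 0.495% fell with DRD2. Of the 157 genes with a symbol other than the members, from which these and the following lists draw, 3.18% followed PRL and 7.64% followed DRD2 in HI, and the counts of followers in each list are to be read beside those shares. Of 4 prolactin signalling genes, PRL and PRKCB, a protein kinase C (0.61, limma adjusted p = 0.00282), were called higher in HI. RASD1, a small G protein induced by glucocorticoids (-1.19, limma adjusted p = 0.00185), and KCNMB2, a potassium channel subunit (-0.91, limma adjusted p = 0.00489), were called lower. Their median was -0.15 against -0.01 over all genes. None of the other 3 followed PRL in either diet, and of these lists' genes only PRL and PLCH2 followed DRD2.

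Of 5 genes of dopamine-DARPP32 feedback, DRD2 and PRKCB were called higher in HI. PLCH2 differed by 0.86 (limma adjusted p = 0.159), CACNA1E, a calcium channel subunit, by 0.63 (limma adjusted p = 0.0510) and CREM, a cAMP-responsive transcription factor, by -0.53 (limma adjusted p = 0.116). The list's median was 0.63. DRD2 and PLCH2 followed PRL in HI, and the slopes of PRKCB (0.16), CREM (-0.04) and CACNA1E (-0.09) did not pass, PRKCB turning to -0.02 with libraries scaled to totals. Of 5 genes of Galpha-i signalling, DRD2 and GNA15 (0.63, limma adjusted p = 0.00974) were called higher, RASD1 and the glutamate receptor GRM7 (-0.98, limma adjusted p = 0.0449) lower, and NPR3, a natriuretic peptide receptor, differed by -0.81 (limma adjusted p = 0.0601). The median was -0.81, and no gene but DRD2 followed PRL. Of 5 genes of cAMP-mediated signalling only DRD2 was called higher and GRM7 lower, with a median of -0.53, and CAMK1D, a calmodulin-dependent kinase, had a slope on PRL in HI of 0.57 (limma adjusted p = 0.0600).

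Of 12 genes of excitability and calcium entry 9 carry an identifier. Since identifiers come from the study's list of genes that differed by diet on these calves, the diet calls and medians of this and the following lists were shaped by that choice and are no evidence of a diet difference, beside 0.408% of all genes called higher and 0.428% called lower. CACNA1I, a T-type calcium channel subunit (0.95, limma adjusted p = 0.00365), ATP2B2 (0.63, limma adjusted p = 0.00185) and CASR, the calcium-sensing receptor (1.33, limma adjusted p = 0.0467), were called higher in HI, and KCNMB2 and GRIA3, a glutamate receptor subunit (-0.79, limma adjusted p = 0.0119), were called lower, with a median of 0.58. None followed PRL (3.18% of genes with a symbol in HI), 1 of the 9, ATP2B2, followed DRD2 in HI (7.64%), and the next was ASIC4, a member of the acid-sensing channel family, with a slope on DRD2 of 0.95 (limma adjusted p = 0.0554). Of 32 regulators of the lactotroph only IGF1 carries an identifier here: it differed by -0.56 (limma adjusted p = 0.0326, below the fold of 1.5) and followed neither member. DRD2 was the only one of 5 dopamine receptors with an identifier.

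Marker transcripts of other cells were set beside both members. Those with an identifier are again genes of the study's list, so their diet calls followed from that choice. Of 6 markers of dividing cells 4 were tested, and the other 2 were not analysed here. Their summed level spanned 80.3 to 200 CPM over the HI calves against 72.1 to 99.9 CPM over the MOD calves, and most of that sum was CIT, with a mean of 124 CPM in HI and 79.2 CPM in MOD, while AURKB, CKS2 and IQGAP3 averaged 1.88, 4.85 and 3.04 CPM in HI. CIT (0.60, limma adjusted p = 0.00318) and CKS2 (0.69, limma adjusted p = 0.00853) were called higher in HI, CIT followed PRL and DRD2 in HI, and IQGAP3 followed DRD2, beside 3.18% on PRL and 7.64% on DRD2 of the genes with a symbol. AURKB and CKS2 followed neither member in either diet. Their slopes on DRD2 were 0.62 and 0.57 in HI (limma adjusted p = 0.159 and 0.127) and -0.72 and -0.24 in MOD (limma adjusted p = 0.407 and 0.774). The somatotroph markers GHRHR and CSHL1 were lower in HI by 0.57 and 0.70, that is, differences of -0.57 and -0.70 (limma adjusted p = 0.00815 and 0.00719, the former below the fold of 1.5), and neither followed PRL or DRD2. FSHB of gonadotrophs was called lower (-1.27, limma adjusted p = 0.0316), and FST of folliculostellate cells differed by -1.02 (limma adjusted p = 0.0607). No leukocyte, smooth muscle, striated muscle or posterior lobe marker that was tested followed either member in either diet. Of these, CD79B and NKX2-2 were called lower and MYH6 and OMG higher in HI. The other leukocyte markers tested went the opposite way to CD79B without passing. CX3CR1 differed by 0.63 (limma adjusted p = 0.105) and TIMD4 by 0.77 (limma adjusted p = 0.0544). The part of other cells in the slopes was not tested.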

How the data were processed

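Libraries were made with a stranded TruSeq kit, 1 per calf. Per the submitters' processing notes, FastQC 0.11.8, cutadapt 2.6, STAR 2.6.1, R 3.4, edgeR 3.5 and the build ARS-UCD1.2 were used. The study's text speaks of deposited gene counts, but the 1 merged table read here, made by the authors, holds a normalized signal, CPM on TMM-adjusted library sizes. Whole reads were recovered (100% of positive values, within 0.001 of a whole read). Every column belongs to a calf.

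Levels were compared with limma 3.58.1 (trend, robust, R 4.3.3) on log2(CPM + 0.5) after filterByExpr of edgeR 4.0.16, because the table holds normalized values, with MOD as the reference and Benjamini-Hochberg adjustment over all genes. A fold on this scale understates the change of low genes. A gene was called by diet where the fold passed 1.5 with an adjusted p-value under 0.05, and called a follower where its slope had an adjusted p-value under 0.05 in a fit with a mean and a slope per diet. Single values were tested by 2-sided permutation (100000 resamples, or all orders where called exact). DESeq2 1.42.0, edgeR and limma-voom were run on recovered reads as alternatives. On simulated reads for 14939 genes, limma recovered 94.5% of 200 genes with a slope of 1 on PRL in HI and called 12 others. Those reads were drawn independently for each gene, and a slope of 1 is steeper than that of DRD2 (0.60). Recovery and false calls among the real genes were thus not measured. Intervals cover 95%.

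The members and lists were chosen with earlier results of these data known. Named followers are the 5 highest and 5 lowest r among called genes with a symbol, or the 3 highest and lowest where none in that direction was called, of 159 genes that the study's table pairs with identifiers. CIT, GREB1L, ATP2B2, DIO3, GPC5 and the genes named by identifier were named after their values were seen. The block of a calf and a sequencing batch are not given in the labels, and p-values measure the spread between calves. No genome of the build was used, so positions are not given.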

Additional observations from a re-analysis of the deposited data

Results flagged for a closer look

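The slope on PRL differed between the diets for ENSBTAG00000022449, a gene without a symbol here that was chosen for this difference. Its slope was -0.30 over the 13 HI calves and 0.28 over the 15 MOD calves, a difference of -0.58 (SE 0.09, limma adjusted p = 0.0171), with an r of -0.89 in HI and 0.70 in MOD. The call was lost without HI calf 553 or 986 or MOD calf 1395 or 2551, when 0 genes differed, and without MOD calf 1392 there were 27 such genes. Groups of more than 10 calves were not searched for single calves that stand apart.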

How the results depend on the processing

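The diet differences of PRL and DRD2 passed the test under all 9 alternatives (log2 0.97 to 1.08 for PRL and 0.91 to 0.99 for DRD2) and without each of 28 calves (0.92 to 1.10 and 0.89 to 1.02). The number of genes called by diet, 125, was 69 with a pseudocount of 2 CPM and 211 with DESeq2. PRL at equal DRD2 changed sign with libraries scaled to totals (0.0776) and ranged from -0.15 to 0.00600 without 1 calf, the latter without MOD calf 2551. The r of PRL and DRD2 in MOD no longer passed with totals (0.458), as rho (0.50) and without 2 calves (0.314), and ran from 0.480 to 0.691 without 1 calf.

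For followers of PRL in HI the count of 53 was 4786 with totals, 11 in a fit of HI calves alone and 0 with a mean for each side of the PRL gap. For those of DRD2 in HI the count of 201 was 126 without a filter, 32 in a fit of HI calves alone, 0 with a mean for each side of the gap and 306 with edgeR. In MOD the counts of 1 on PRL and 2 on DRD2 were 0 with totals for both, 0 for DRD2 without a filter, and 4 and 5 with edgeR. The single gene whose PRL slope differed by diet became 3 with totals. Without 1 calf the counts ran from 6 to 145 and 0 to 46 on PRL in HI and MOD, 22 to 931 and 0 to 12 on DRD2, and 0 to 27 and 0 to 2 for slopes that differed by diet. The difference in spread of PRL ran from 0.16 to 0.30. Of named followers in HI, BEAN1 and CIT on PRL and ATP2B2, DIO3, GPC5 and PRRT4 on DRD2 lost their call without a filter, PRRT4 also with a pseudocount of 2 CPM, and CIT on PRL and ATP2B2, BEAN1, CIT, DIO3, ETV1, GPC5 and GREB1L on DRD2 with totals. The gap and totals alternatives were chosen after seeing the data. No paired analysis was possible because the labels give the diets different calf numbers. Except where the fit itself shows it (fewer calves or genes), the cause was not tested.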
